A study of Homo sapiens with 12 samples.

Results

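RTN4RL2, NTRK3, GPR37, FEZ1, DPYSL3, PTPRD, CORO2B and NPY4R are 8 genes best known from neurons whose transcript levels differed between wild-type (WT) and PARP3-/- A549 cells. A549 is a human lung adenocarcinoma line, and the 8 genes were picked by symbol from the 25365 names in one expression table. They were chosen on the measured difference between genotypes in these libraries, so that difference is described below without a test. The study sequenced mRNA from WT A549 cells and from A549 cells labelled PARP3-/-, each treated for 24 h with vehicle or with 1 μM pyridostatin, a small molecule that binds G-quadruplex (G4) DNA. PARP3 is a poly(ADP-ribose) polymerase that acts in the repair of DNA double-strand breaks. Each of the 4 groups held 3 libraries, described as biological replicates, which gives 12 in all. The PARP3-/- cells were made with Cas9 and a pair of guides that delete part of the first exon and were then cloned by serial dilution, so effects of the genotype and of the clone cannot be told apart.

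The 8 genes fall into 3 kinds by what their proteins do. RTN4RL2 (also called NgR2), NTRK3 (the neurotrophin-3 receptor TrkC) and PTPRD (a receptor-type tyrosine phosphatase of the LAR family) sit at the surface of neurons and take part in axon growth and synapse formation. GPR37 is an orphan receptor known as a substrate of the ubiquitin ligase parkin, and NPY4R is a receptor for pancreatic polypeptide, a peptide of the neuropeptide Y family. FEZ1 (a kinesin-1 adaptor in axonal transport), DPYSL3 (also called CRMP4, a cytoskeletal protein of growth cones) and CORO2B (a neuron-enriched coronin that binds actin) act inside the cell. Outside the nervous system many neuronal genes are held low by the repressor REST, which binds a DNA element called RE1.

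Because the drug binds G4 DNA, the bases before the annotated transcription starts are shown for the members whose sequences were at hand. RefSeq windows on GRCh38.p14 existed for 6 of the 8 genes (CORO2B, DPYSL3, FEZ1, NPY4R, NTRK3 and PTPRD), with 13 starts between them. The windows below hold the 250 bases before one start each, on the strand of the gene. Capitals mark stretches that match the G4 motif. It was defined as 4 runs of at least 3 G with 1 to 7 bases of any kind between them, on either strand. A run of C thus marks G on the opposite strand. The search took stretches in turn without overlap. Bases that match only in overlap with a marked stretch therefore stay in lower case, as in NTRK3 and DPYSL3. NTRK3 and PTPRD were lower in the PARP3-/- libraries, and DPYSL3 and FEZ1 were higher.
NTRK3, chr15:88256740-88256989, minus strand: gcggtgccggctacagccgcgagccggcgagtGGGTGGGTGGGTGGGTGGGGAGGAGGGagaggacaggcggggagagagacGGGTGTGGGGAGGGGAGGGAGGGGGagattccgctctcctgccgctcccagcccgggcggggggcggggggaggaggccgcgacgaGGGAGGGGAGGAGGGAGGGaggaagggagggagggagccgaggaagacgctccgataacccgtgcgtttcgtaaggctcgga
PTPRD, chr9:10613003-10613252, minus strand: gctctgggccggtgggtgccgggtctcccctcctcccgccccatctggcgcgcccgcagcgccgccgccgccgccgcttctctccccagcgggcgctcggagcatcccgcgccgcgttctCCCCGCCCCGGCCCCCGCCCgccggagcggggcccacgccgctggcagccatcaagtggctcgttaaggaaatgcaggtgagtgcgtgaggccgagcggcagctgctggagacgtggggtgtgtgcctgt
DPYSL3, chr5:147453693-147453942, minus strand: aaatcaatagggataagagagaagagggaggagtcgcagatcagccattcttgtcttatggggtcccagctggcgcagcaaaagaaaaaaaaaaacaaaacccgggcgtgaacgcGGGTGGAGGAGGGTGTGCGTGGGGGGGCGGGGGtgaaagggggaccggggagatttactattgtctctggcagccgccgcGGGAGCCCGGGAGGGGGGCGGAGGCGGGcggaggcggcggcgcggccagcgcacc
FEZ1, chr11:125496266-125496515, minus strand: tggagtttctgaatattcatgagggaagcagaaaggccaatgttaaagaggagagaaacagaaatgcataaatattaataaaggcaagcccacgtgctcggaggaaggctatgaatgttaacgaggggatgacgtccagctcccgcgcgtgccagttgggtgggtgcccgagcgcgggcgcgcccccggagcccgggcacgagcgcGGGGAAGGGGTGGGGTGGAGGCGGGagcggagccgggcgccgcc

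Counted without overlap, NTRK3 held 3 marked stretches over 71 bases and DPYSL3 held 2 over 61 bases, which leaves out overlapping matches. FEZ1 held 1 of 25 bases and PTPRD held 1 of 20 bases at the start shown. The single NPY4R window held the stretch GGGCGGGCGCAAGGGGCAGGCTGGG, and CORO2B held CCCGGCCCCTCTTCCTCCCCCCGCCCCCC before 1 of its 5 annotated starts. All 6 genes with a window had the motif before at least 1 start, in 7 of 13 windows (53.8%). Among genes tested in the fit, 39.7% had it before at least 1 start and 32.1% of their windows held it, and among all windows of this length in the reference 23.5% held it. The genes with the motif thus include members that were lower and members that were higher in the PARP3-/- libraries. The left and right part of the RE1 element, TTCAGNACC and GGACAGNGCC, were also searched on both strands. Neither was found in the 13 member windows, against 0.809% and 0.683% of all windows. With shares this low, 13 windows would be likely to hold none, so nothing is read from their absence. These matches describe letters in the reference. Which start the A549 cells use was not measured, and the search was added after expression values had been seen.

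**Figure D1:**
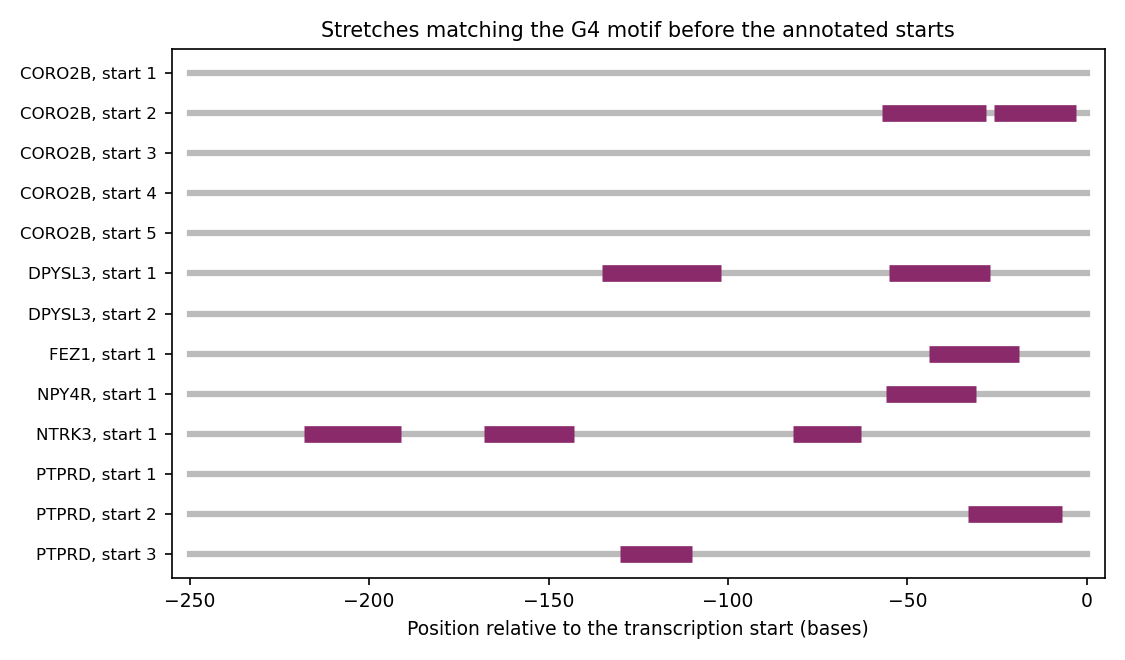
Position of G4 motif matches in the 250 bases before each of the 13 annotated starts of 6 genes, with the distance from the start in bases on the horizontal axis and 1 grey line per start. Purple bars are matching stretches counted without overlap, present before 7 of the 13 starts and at 3 places before the NTRK3 start.

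Before the values, the labels were checked. The PARP3 transcript was not lower in the libraries labelled PARP3-/-. It stood at 3.73 ± 0.293 FPKM (fragment counts scaled to transcript length and library depth, SD, n = 3) in WT vehicle libraries and at 4.41 ± 0.447 in PARP3-/- vehicle libraries, and at 3.79 ± 0.243 and 4.58 ± 0.245 after pyridostatin. The exact two-sided permutation p was 0.1 with either treatment, the smallest that 3 against 3 libraries can give. This level covers the whole transcript and the deletion lies within the first exon, so it does not check the deletion. For the deletion the study describes a PCR screen of the clones and shows a Sanger sequencing trace. It also shows immunoblots of PARP3-/- A549 cells with PARP3 put back. Every direction given here rests on the labels. Steps in the lowest values put the depth at about 21800000 to 30800000 reads per library, an approximate figure from 90 low genes. WT vehicle replicate 2 lay farthest from its group's mean, by a root mean square of 0.33 on the log2(FPKM + 1) scale over all genes tested, against 0.264 to 0.30 in the other 11 libraries. Without it the median size of the members' genotype difference with vehicle was 0.97 in place of 0.99. Of the epithelial markers, 9 of 12 averaged at least 1 FPKM and 6 at least 10, led by KRT8 at 2766 to 3375, KRT18 at 2207 to 3314 and KRT7 at 1504 to 1831 FPKM, and CLDN4, CLDN7 and ESRP1 averaged 0.666, 0.156 and 0.117 FPKM. Of the alveolar type II markers 1 of 10 (ABCA3) averaged at least 1 FPKM. NAPSA and LAMP3 were the next highest of that list, at means of 0.709 and 0.229 FPKM.

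RTN4RL2, NTRK3, GPR37, NPY4R and PTPRD were lower in the PARP3-/- libraries, and DPYSL3, FEZ1 and CORO2B were higher. In no case did the 3 libraries of one genotype overlap the 3 of the other, with vehicle or with pyridostatin. Of the 11881 genes tested, 24.2% did not overlap between genotypes with vehicle, 35.2% did not with pyridostatin, and 9.67% did not when all 6 libraries of each genotype were set against each other. Because the members were chosen on this contrast, nothing is read from their own count. For scale, 6.4% of tested genes passed an adjusted p of 0.05 as higher and 3.01% as lower in PARP3-/- libraries with vehicle, and 7.07% and 3.85% did with pyridostatin (limma, Benjamini-Hochberg adjustment). The median size of the genotype difference over the 8 members was 0.99 on the log2(FPKM + 1) scale with vehicle and 1.04 with pyridostatin, beside 0.075 and 0.081 over all genes tested. Adding 1 FPKM before the logarithm understates the change of low genes, so ratios of mean FPKM are given too.

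RTN4RL2, a receptor that binds myelin-associated glycoprotein, had 18.3, 21.2 and 18.7 FPKM in the WT vehicle libraries and 16.0, 18.6 and 15.9 in the WT pyridostatin libraries. In the PARP3-/- libraries it had 5.246, 7.125 and 6.94 FPKM with vehicle and 6.83, 7.35 and 8.12 with pyridostatin. Every WT library was thus above every PARP3-/- library. The ratio of means, WT over PARP3-/-, was 3.01 with vehicle and 2.27 with pyridostatin.

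NTRK3, the receptor tyrosine kinase for neurotrophin-3, had 10.6, 10.87 and 10.95 FPKM in the WT vehicle libraries and 12.1, 10.85 and 10.92 with pyridostatin. The PARP3-/- libraries had 5.07, 5.08 and 5.604 FPKM with vehicle and 4.62, 4.97 and 4.41 with pyridostatin. The WT vehicle libraries were the tightest group of this gene, with a coefficient of variation of 1.63%. The ratio of means, WT over PARP3-/-, was 2.06 with vehicle and 2.42 with pyridostatin.

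GPR37 had 2.60, 2.47 and 2.94 FPKM in the WT vehicle libraries and 2.501, 2.45 and 2.36 in the WT pyridostatin libraries. It had 1.13, 1.13 and 1.12 FPKM in the PARP3-/- vehicle libraries and 1.21, 1.23 and 1.14 after pyridostatin. All 6 WT libraries lay above all 6 PARP3-/- libraries, with ratios of means of 2.37 and 2.04 for the 2 treatments.

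NPY4R had 7.56, 7.14 and 7.96 FPKM in the WT vehicle libraries and 8.51, 6.46 and 8.36 with pyridostatin. In the PARP3-/- libraries the values were 3.50, 2.65 and 2.26 FPKM with vehicle and 2.80, 2.86 and 2.92 with pyridostatin. WT was higher throughout, by a ratio of means of 2.695 with vehicle and 2.72 with pyridostatin. The gene has a near-identical copy, NPY4R2. One NPY4R2 start window matched that of NPY4R at 298 of 300 bases, with the substitutions A24G and C255T counted from the 5′ end of the window and the NPY4R base given first. How the authors' counting split reads between the copies is not given in the sources used here, and the NPY4R values are uncertain to that degree.

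PTPRD showed the widest gap by ratio. It had 1.70, 1.22 and 1.63 FPKM in the WT vehicle libraries and 1.81, 1.78 and 1.74 with pyridostatin. In the PARP3-/- libraries it had 0.0747, 0.0328 and 0.0584 FPKM with vehicle and 0.0392, 0.0716 and 0.0783 with pyridostatin. The ratio of means was 27.5 with vehicle and 28.2 with pyridostatin. At the estimated depth the PARP3-/- values stand for about 8 to 21 reads per library and the WT values for about 312 to 544, so the denominator is known only roughly, and its coefficient of variation was 38.1% with vehicle. PTPRD averaged less than 1 FPKM over the 12 libraries and did not pass the filter on low values, which the other 7 members passed.

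DPYSL3, a collapsin response mediator protein, was the most abundant of the 8 genes. It had 55.65, 51.57 and 56.03 FPKM in the WT vehicle libraries and 51.61, 53.45 and 51.47 with pyridostatin. The PARP3-/- libraries had 110.1, 115.5 and 120.5 FPKM with vehicle and 104.3, 107.2 and 106.5 with pyridostatin. Every PARP3-/- library was at least 50.9 FPKM above every WT library of the same treatment, and the ratios of means, PARP3-/- over WT, were 2.12 and 2.03.

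FEZ1 had 0.886, 0.886 and 0.719 FPKM in the WT vehicle libraries and 0.763, 0.775 and 0.877 with pyridostatin. The PARP3-/- libraries had 1.89, 1.99 and 1.79 FPKM with vehicle and 2.55, 2.42 and 2.64 with pyridostatin. The PARP3-/- libraries were higher with both treatments, by ratios of means of 2.28 and 3.15, and those with pyridostatin were the highest of all. FEZ1 overlaps EI24 and STT3A on the opposite strand, which are far more abundant at 63.6 to 83.0 and 32.2 to 35.5 FPKM. The kit marked strand, but whether the counting used it is not given in the sources used here. Neither EI24 (log2 differences of -0.046 and -0.015) nor STT3A (0.0029 and 0.054) passed the test between genotypes with vehicle or pyridostatin, with adjusted p (limma) from 0.368 to 0.981.

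CORO2B had 0.447, 0.793 and 0.638 FPKM in the WT vehicle libraries and 0.439, 0.401 and 0.406 with pyridostatin. It had 1.70, 1.60 and 1.81 FPKM in the PARP3-/- vehicle libraries and 1.40, 1.195 and 1.37 after pyridostatin. The PARP3-/- libraries were higher, by ratios of means of 2.725 with vehicle and 3.18 with pyridostatin. Its WT vehicle libraries were the most scattered, with a coefficient of variation of 27.7%.

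**Figure D2:**
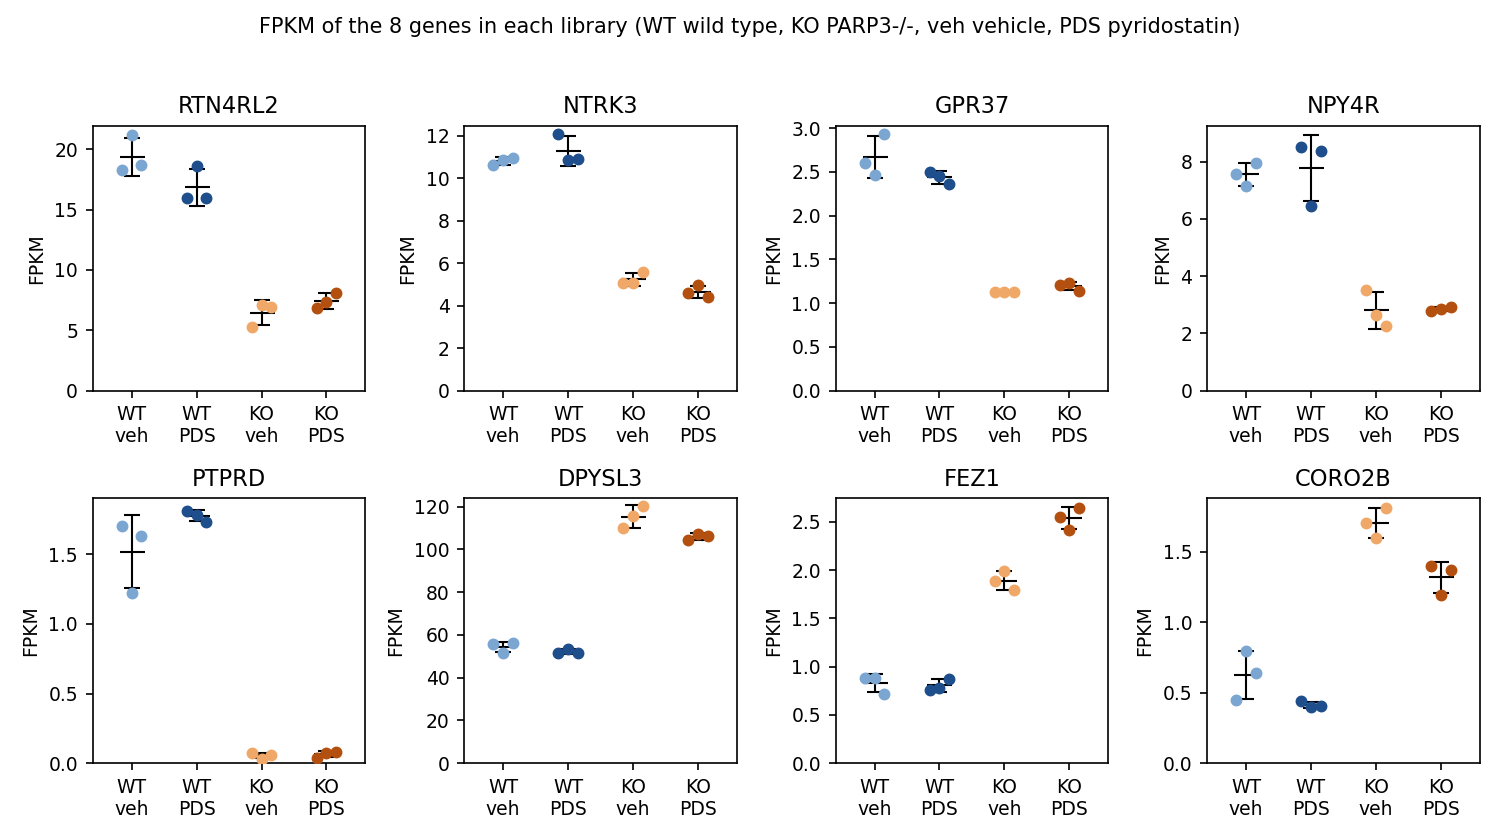
FPKM of each of the 8 genes (vertical axes, from 0) in the 12 libraries, 3 points per group, with the group mean and SD in black. WT libraries are blue and PARP3-/- libraries orange (KO), with pyridostatin (PDS) in the darker shade. In each panel the blue and orange points do not overlap, with RTN4RL2, NTRK3, GPR37, NPY4R and PTPRD higher in WT and DPYSL3, FEZ1 and CORO2B higher in PARP3-/-.

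FPKM is scaled to transcript length, so levels can be ordered between genes. In WT vehicle libraries DPYSL3 was highest (54.4 ± 2.47 FPKM, SD, n = 3), followed by RTN4RL2 (19.4 ± 1.57), NTRK3 (10.8 ± 0.176), NPY4R (7.56 ± 0.411), GPR37 (2.67 ± 0.242), PTPRD (1.52 ± 0.260), FEZ1 (0.830 ± 0.0963) and CORO2B (0.626 ± 0.173). FEZ1 and CORO2B were the only neighbours in that order whose libraries overlapped. In PARP3-/- vehicle libraries DPYSL3 was again first at 115.4 ± 5.20 FPKM and PTPRD was last at 0.0553 ± 0.0211. FEZ1 (1.89 ± 0.0991) and CORO2B (1.705 ± 0.105) there stood above GPR37 (1.13 ± 0.00248). RTN4RL2 overlapped NTRK3 in that group, and FEZ1 overlapped CORO2B. With pyridostatin the order within each genotype was the same as with vehicle, and CORO2B overlapped GPR37 in the PARP3-/- libraries. Set among the genes tested, DPYSL3 had a higher mean over the 12 libraries than 91.9% of them and RTN4RL2 than 54.7%, but FEZ1 than 5.65% and CORO2B than 0.227%.

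The drug contrast was not used to choose the members, so it was tested. In WT cells none of the 7 members that passed the filter changed with pyridostatin at an adjusted p of 0.05 (limma, 1 at an unadjusted p under 0.05), where 2.79% of all tested genes rose and 1.38% fell. That filter was on the mean over all 12 libraries. FEZ1 and CORO2B passed it through the PARP3-/- libraries, since their highest WT values were 0.886 and 0.793 FPKM. Their WT results thus describe genes below 1 FPKM, and FEZ1 was tested in PARP3-/- cells in the libraries that carried it past the filter. In PARP3-/- cells FEZ1 rose and the other 6 did not pass the test. At an unadjusted limma p under 0.05 there were 4 of the 7, FEZ1 included. The share of all genes at that unadjusted threshold is not given for either drug contrast, so nothing is read from the counts of 1 and 4. At an adjusted limma p of 0.05, 3.05% of all genes rose and 2.52% fell in PARP3-/- cells (54.8% of calls higher, 45.3% with libraries shifted to a common median). The median size of the drug difference over the 8 members was 0.076 in WT and 0.13 in PARP3-/- cells on the log2(FPKM + 1) scale, beside 0.078 and 0.074 over all genes tested. These differences share vehicle libraries with the genotype comparison and are given only side by side with it.

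FEZ1 rose in PARP3-/- cells by 0.29 on the log2(FPKM + 1) scale (SE 0.062, 95% interval 0.15 to 0.43, limma adjusted p = 0.0225). Its mean went from 1.89 to 2.54 FPKM. In WT cells its difference was -0.019 (interval -0.16 to 0.12, adjusted p = 0.894). Over all alternatives the difference in PARP3-/- cells stayed between 0.26 and 0.41, but its call was lost in 6 of 19. A pseudocount of 0.1 and quantile normalization were among those that lost it. The adjusted p became 0.0612 without PARP3-/- vehicle replicate 1, 0.0863 without vehicle replicate 3, 0.0513 without PARP3-/- pyridostatin replicate 1 and 0.0932 without pyridostatin replicate 3, and over all alternatives the p ran from 0.00935 to 0.0932. EI24, the abundant gene on the opposite strand, rose with pyridostatin in both genotypes, by 0.21 in WT (adjusted p = 0.0206) and 0.24 in PARP3-/- cells (adjusted p = 0.00839), and its part in the FEZ1 value was not tested.

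The remaining members gave smaller or less certain differences. CORO2B was lower after the drug by point estimate in both genotypes, at -0.19 in WT (interval -0.38 to -0.012, adjusted p = 0.221) and -0.22 in PARP3-/- cells (interval -0.40 to -0.039, adjusted p = 0.161). DPYSL3 differed by -0.12 in PARP3-/- cells (interval -0.22 to -0.025, adjusted p = 0.146) and NTRK3 by -0.14 (interval -0.26 to -0.022, adjusted p = 0.174). Neither DPYSL3 nor NTRK3 passed the threshold. The DPYSL3 p became 0.0449 without WT vehicle replicate 2, which enters that contrast only through the shared spread. RTN4RL2 differed by -0.19 in WT and 0.19 in PARP3-/- cells, with intervals of -0.43 to 0.044 and -0.047 to 0.42. GPR37 and NPY4R differed by -0.092 and 0.030 in WT and by 0.047 and 0.034 in PARP3-/- cells, all with intervals across 0. PTPRD, from the fit with no filter, differed by 0.15 in WT (adjusted p = 0.409) and 0.011 in PARP3-/- cells (adjusted p = 1).

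Whether the drug difference depended on genotype was tested as an interaction. No gene of the 11881 passed (0% called, 521 or 4.39% at an unadjusted p under 0.05), so none of the 7 members did either. The 3 members past an unadjusted 0.05 were FEZ1 (0.31, interval 0.12 to 0.50), NTRK3 (-0.20, interval -0.37 to -0.028) and RTN4RL2 (0.38, interval 0.047 to 0.71), each with a limma adjusted p of 0.999. A difference in drug response between genotypes was therefore not shown for any member.

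**Figure D3:**
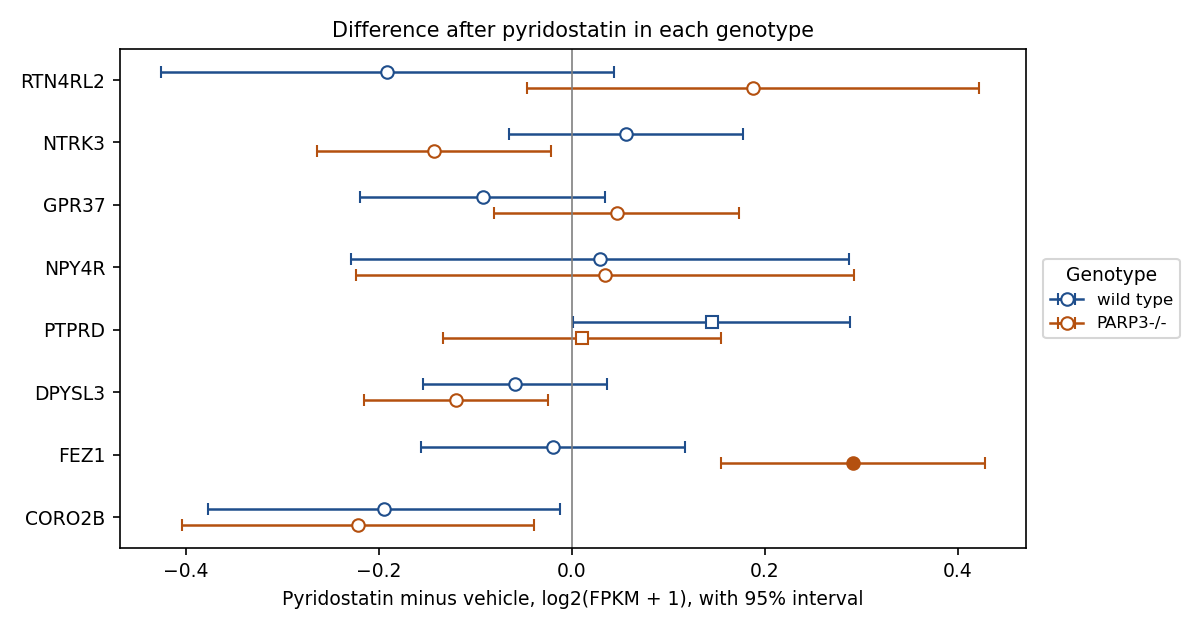
Pyridostatin minus vehicle on the log2(FPKM + 1) scale (horizontal axis) with 95% intervals for the 8 genes, in WT (blue) and PARP3-/- cells (orange). The filled point, FEZ1 in PARP3-/- cells at 0.29, is the one difference past an adjusted p of 0.05, and squares mark PTPRD, taken from the fit with no filter on low values.

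Ligands, receptors, paralogues and partners of the 8 genes were then followed, 79 of them in the table and 41 past the filter. With vehicle, 8 were higher and 2 lower in PARP3-/- libraries at an adjusted p of 0.05 and 31 did not pass. With pyridostatin, 7 were higher and 1 lower. The share called was 24.4% and 19.5%, beside 9.41% and 10.9% of all genes tested in either direction, and the median difference was 0.074 and 0.086, beside 0.015 and 0.0083 over all genes tested. With libraries shifted to a common median the counts were 6 higher and 3 lower with vehicle and 4 and 1 with pyridostatin. The pyridostatin count rose to 15 without WT vehicle replicate 2. It fell to 3 without WT pyridostatin replicate 1 or PARP3-/- pyridostatin replicate 3, to 4 without PARP3-/- pyridostatin replicate 2, and to 5 without PARP3-/- vehicle replicate 2, WT pyridostatin replicate 2 or 3 or PARP3-/- pyridostatin replicate 1. 

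The ligands that NTRK3 and NPY4R are named for were at 0 in the table. NTF3, which encodes neurotrophin-3, and PPY and NPY, which encode pancreatic polypeptide and neuropeptide Y, were listed at 0 in all 12 libraries. EHMT2, a gene that most cells use, was listed at 0 as well, so a 0 in this table can be a failed estimate. Of the neurotrophin genes, BDNF, the ligand of the related receptor TrkB, was higher in PARP3-/- libraries by 0.60 with vehicle (SE 0.044, 7.31 ± 0.0449 FPKM in WT against 11.6 ± 0.620, n = 3) and by 0.50 with pyridostatin (8.09 ± 0.293 against 11.9 ± 0.337). PLCG1, a phospholipase that Trk receptors activate, was higher by 0.21 and 0.20. BDNF and PLCG1 thus moved opposite to NTRK3. SHC1, an adaptor of Trk receptors, rose with pyridostatin in PARP3-/- cells by 0.16 (limma adjusted p = 0.0184). In WT cells its difference was 0.13 (limma adjusted p = 0.0542), and its interaction did not pass. The other 4 tested neurotrophin genes passed no comparison.

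Among the Nogo receptor genes, RTN4, which encodes the ligand Nogo and was abundant at 184.9 to 227.2 FPKM, did not pass the test, and neither did RTN4R or LINGO1. RTN4RL1 (NgR3), the paralogue of RTN4RL2, averaged 0.761 FPKM and was below the filter. It is named here after its values were seen. In the fit with no filter it was higher in PARP3-/- libraries by 0.36 with vehicle (limma adjusted p = 0.0141) and 0.53 with pyridostatin (adjusted p = 0.00179), and it rose with pyridostatin by 0.41 in WT and 0.58 in PARP3-/- cells (adjusted p = 0.0197 and 0.00347). Its means were 0.273 FPKM in WT vehicle, 0.636 in PARP3-/- vehicle, 0.690 in WT pyridostatin and 1.45 in PARP3-/- pyridostatin libraries, so between genotypes, within each treatment, the paralogue was higher where RTN4RL2 was lower.

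The LAR-type phosphatase list held paralogues of PTPRD and partners of these phosphatases. None of its 8 tested genes was called lower in PARP3-/- libraries, the direction of PTPRD. Among the 8, only PTPRF and PTPRS were phosphatases of the family. PTPRF, the founding member of the family, was higher in PARP3-/- libraries by 0.33 with vehicle (43.8 ± 3.73 against 55.05 ± 1.98 FPKM) and by 0.30 with pyridostatin. PTPRS, the other paralogue, had 16.3 ± 1.08 FPKM in WT and 16.4 ± 0.576 in PARP3-/- vehicle libraries and did not pass. SLITRK6, of a family of synaptic ligands for these phosphatases, was higher by 0.34 with vehicle (limma adjusted p = 0.00926) and rose with pyridostatin in WT cells by 0.29 (adjusted p = 0.0427). The other 5 tested genes of this list passed neither genotype comparison. SLITRK2, below the filter and named after its values were seen, was lower in the fit with no filter (-0.060 with vehicle and -0.069 with pyridostatin, limma adjusted p = 0.00289 and 0.00125). Its means were 0.0465 FPKM in WT and 0.00371 in PARP3-/- vehicle libraries, and 0.0492 and 0 with pyridostatin. These levels are near the floor, so nothing is read from the p values.

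Genes of the collapsin response mediator family and of semaphorin signalling, to which it responds, moved with DPYSL3 where they passed. DPYSL4, a paralogue of DPYSL3, was higher in PARP3-/- libraries by 0.30 with vehicle and 0.27 with pyridostatin, and it rose with pyridostatin by 0.47 in WT (limma adjusted p = 0.00135) and 0.44 in PARP3-/- cells (adjusted p = 0.00196), which DPYSL3 did not. PLXNA3, a semaphorin receptor, was higher by 0.35 and 0.24, and NRP1, a semaphorin co-receptor, by 0.35 with vehicle (adjusted p = 0.0437). Of 10 tested genes 3 were higher with vehicle (30%), 2 with pyridostatin (20%) and none lower. Over all genes tested 9.41% and 10.9% were called in either direction, and 68% and 64.8% of those calls were higher. The calls of NRP1 and, with pyridostatin, PLXNA3 depended on the scaling. The median difference of the 10 was 0.20 and 0.12. DPYSL2 and DPYSL5, further paralogues, did not pass.

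FEZ2, the paralogue of FEZ1, was higher in PARP3-/- libraries by 0.36 with vehicle (30.5 ± 0.197 against 39.4 ± 1.58 FPKM) and by 0.38 with pyridostatin, the same direction as FEZ1. KLC2, a light chain of kinesin-1, was lower with vehicle (log2 difference -0.16, 22.3 ± 0.309 against 19.9 ± 0.287 FPKM, limma adjusted p = 0.0449). The other 3 tested partners of FEZ1, KIF5B and KLC1 among them, did not pass. Of the coronins, CORO1C was higher by 0.17 with pyridostatin (72.8 ± 0.432 against 82.0 ± 1.69 FPKM, limma adjusted p = 0.0371), and none of the 6 passed with vehicle. At an unadjusted limma p under 0.05 there were 3 with vehicle. No share of all genes at that threshold is given, so nothing is read from this count. CORO2A, the closest paralogue of CORO2B, had 1.12 ± 0.0457 FPKM in WT and 0.885 ± 0.140 in PARP3-/- vehicle libraries.

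NPY1R, a second receptor of the neuropeptide Y family, was lower in PARP3-/- libraries with both treatments, as NPY4R was. It had 2.66 ± 0.255 against 1.66 ± 0.134 FPKM with vehicle (log2 difference -0.46, limma adjusted p = 0.00647) and 2.62 ± 0.330 against 1.91 ± 0.222 with pyridostatin (-0.31, adjusted p = 0.0437). NPY1R was the single gene of this list past the filter. For GPR37 the relative past the filter was PSAP, which encodes its proposed ligand prosaposin. It was abundant, at 331.6 to 387.0 FPKM, and passed no comparison.

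**Figure D4:**
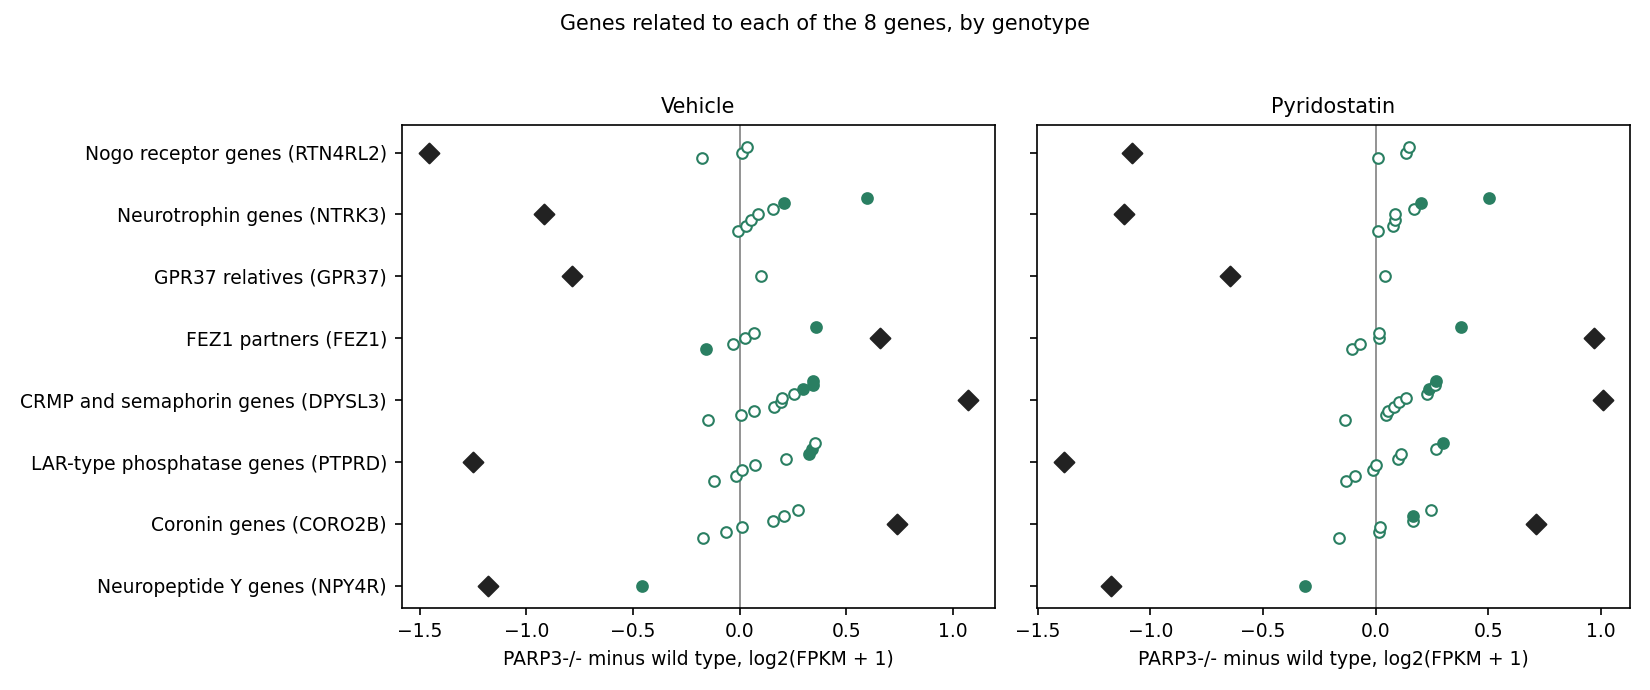
Genotype difference (PARP3-/- minus WT, log2(FPKM + 1), horizontal axes) of each tested relative (circles, filled at an adjusted p under 0.05) in 8 families, with vehicle on the left and pyridostatin on the right. Black diamonds are the members, which were chosen for this difference. BDNF at 0.60 with vehicle lies opposite to NTRK3, PTPRF at 0.33 opposite to PTPRD, and NPY1R at -0.46 on the same side as NPY4R.

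The pyridostatin contrast over the same 41 relatives gave 2 genes higher in each genotype and none lower. These were DPYSL4 and SLITRK6 in WT cells and DPYSL4 and SHC1 in PARP3-/- cells. The count in WT fell to 1 when any of 9 of the 12 libraries was left out (all but WT vehicle replicates 1 and 2 and WT pyridostatin replicate 2). In PARP3-/- cells it rose to 4 without WT vehicle replicate 2 and fell to 1 without PARP3-/- vehicle replicate 1 or 2 or PARP3-/- pyridostatin replicate 2 or 3.

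REST and its corepressors gave little by genotype. Of 15 listed genes 13 were tested, none passed with vehicle (limma, none at an unadjusted p under 0.05), and their median difference was 0.025, beside 0.015 over all genes. REST itself had 4.21 ± 0.968 FPKM in WT and 4.44 ± 0.0528 in PARP3-/- vehicle libraries. HDAC2, a histone deacetylase found in REST complexes, was lower with pyridostatin (log2 difference -0.11, 16.3 ± 0.203 against 15.03 ± 0.2998 FPKM, limma adjusted p = 0.0493). That call was lost when any one of 11 libraries was left out, the exception being WT vehicle replicate 2.

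Markers of other cell types were read beside the members. Of 33 neuron markers 11 averaged at least 1 FPKM, led by UCHL1 (411.2 to 509.5 FPKM), TUBB3 (146.0 to 172.4) and INA (23.3 to 28.8), and STMN2, ELAVL4, DCX and MAPT were among those listed at 0 throughout. Their summed level was 635.5 to 754.0 FPKM in WT and 689.1 to 704.0 in PARP3-/- vehicle libraries, and 663.2 to 684.5 and 669.2 to 716.6 with pyridostatin, so the ranges overlapped between genotypes. UCHL1 and TUBB3, at means of 455.9 and 158.3 FPKM, made up most of this sum, so it says little about the lower markers. Single markers went both ways. SNAP25 and SYT1, of the synaptic vesicle machinery, were higher by 0.18 and 0.38 with vehicle, and NEFL, a neurofilament subunit, was lower (log2 difference -0.43). Of the 11, 27.3% were called with vehicle and 18.2% with pyridostatin, beside 9.41% and 10.9% of all genes tested in either direction. With pyridostatin the calls were SYT1 (0.31) and NEFL (-0.46). SNAP25 fell with pyridostatin in PARP3-/- cells (-0.21, limma adjusted p = 0.0121). In WT cells its difference was -0.12 (limma adjusted p = 0.117), and its interaction did not pass. Glia markers reached 1 FPKM for 2 of 14 (CNP and MBP), with CNP higher by 0.18 with vehicle, and their sum did not overlap between genotypes, at 32.4 to 33.2 FPKM in WT and 33.9 to 37.6 in PARP3-/- libraries with vehicle and at 30.2 to 32.5 and 34.0 to 34.8 with pyridostatin. Neuroendocrine markers reached 1 FPKM for 3 of 10. Of those 3, 100% were called with vehicle and 66.7% with pyridostatin, which are shares of very few genes. CHGB was higher by 0.46 and 0.53, SCG2 by 0.46 with vehicle, and DDC was lower (log2 differences -0.80 and -0.56), with sums that did not overlap with vehicle (6.71 to 6.85 FPKM in WT, 7.08 to 7.36 in PARP3-/- libraries) and overlapped with pyridostatin (5.18 to 6.38 and 6.197 to 7.04).

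The epithelial list also moved in part with genotype. CDH1 (E-cadherin) was lower in PARP3-/- libraries (log2 differences -0.42 with vehicle and -0.51 with pyridostatin), as was EPCAM (-0.53 and -0.48), while KRT19 was higher by 0.85 with both treatments, and the other 6 tested markers did not pass. That was 33.3% of the 9 tested with each treatment, beside 9.41% and 10.9% of all genes tested in either direction. Their sum was 7257 to 8666 FPKM in WT and 6994 to 7737 in PARP3-/- vehicle libraries, which overlapped, and 7615 to 7762 and 6953 to 7543 with pyridostatin, which did not. ABCA3, the alveolar marker above 1 FPKM, was higher by 0.23 and 0.20. What part such differences between the cells have in the members' values was not tested.

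For each member the 2 tested genes with the most similar profile were found by the root mean square distance of log2(FPKM + 1) values, each gene centred on its mean over the 12 libraries. NTRK3 was closest to CPLX2, a complexin of the synaptic release machinery, at a distance of 0.078, and next to STAT4. CPLX2 was far more abundant, at 220.9 and 113.6 FPKM in WT and PARP3-/- vehicle libraries and 228.9 and 105.0 with pyridostatin. GPR37 was closest to CA12 and NPR3 (0.064 and 0.082), RTN4RL2 to AQP3 and FGA (0.13 and 0.14), and PTPRD to FILIP1 and MUC5B (0.090 and 0.10). NPY4R was closest to PDE3A (0.13) and also to MUC5B (0.15). Of the members that were higher in PARP3-/- libraries, DPYSL3 was closest to COL5A1 and NT5E (0.075 and 0.079), FEZ1 to NIPAL4 (0.086), and CORO2B to ANXA8 and LYPD1 (0.089 and 0.094). These distances describe 12 libraries that share 2 genotypes, and any gene with a like genotype difference will be near.

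Nearby genes were read as a further description, chosen after values were seen. For each member the 2 closest tested protein-coding genes on either side, by RefSeq order on GRCh38, gave 32 neighbours. With each treatment 4 of the 32 (12.5%) were called between genotypes, a share near the 9.41% and 10.9% of all genes tested, and 1 of those 4 moved in the direction of its member. SPINK6, beside DPYSL3, was lower in PARP3-/- libraries (log2 differences -2.57 with vehicle and -2.53 with pyridostatin) while DPYSL3 was higher. ANXA8L1, beside NPY4R, was higher by 0.83 and 0.82 while NPY4R was lower. GLDC, beside PTPRD, was higher by 0.17 with vehicle, and ANP32A, beside CORO2B, was lower with pyridostatin (log2 difference -0.13). The neighbours that moved with their member were LURAP1L, beside PTPRD, at -0.23 with vehicle and SSRP1, beside RTN4RL2, at -0.15 with pyridostatin.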

How the data were processed

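RNA-seq was made from WT and PARP3-/- A549 cells treated with vehicle or 1 μM pyridostatin for 24 h, with 3 replicates in each of 4 groups. The authors prepared stranded mRNA libraries, sequenced single-end 75-base reads and deposited FPKM values, 1 column per library, with no pooling of replicates. The submitters' processing notes name bcl2fastq 2.16, STAR 2.5 and Cufflinks, and the builds hg19 and mm9; the annotation is not given in the sources used here. Read assignment and scaling to length and depth are therefore already in the values. The authors tested counts with DESeq2, which were not used here. Of its 25365 names, 6033 had no value above 0 in any library and 28 read as calendar dates, a known spreadsheet error. All were kept.

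The 11881 genes whose mean over the 12 libraries reached 1 FPKM were fitted as log2(FPKM + 1) in limma 3.58.1 (R 4.3.3), with one model of the 4 groups, eBayes with a trend, and Benjamini-Hochberg adjustment over all genes tested at 0.05. The interaction was the difference of the 2 drug differences. No test was run on the members' genotype difference, and PTPRD was taken from the same fit without the filter. Steps were tested on simulated data. The depth is unknown from the table itself and was estimated from the spacing of low values, so no counting intervals are given. Python 3.11.15 was used elsewhere. The members and gene lists were chosen with earlier results of these data known. Named were all 8 members, PARP3, the relatives with an adjusted p under 0.05 between genotypes or else the most abundant of each family, the 3 most abundant markers of each list, and the 2 genes nearest each member in profile; others named were chosen after their values were seen. The promoter windows, motif search, neighbours and overlaps were added after values were seen. Same-numbered replicates correlated at most at 0.216 in their deviations from the group means. All 3 pairs were weakly positive between genotypes with vehicle and after pyridostatin in PARP3-/- cells. In no comparison did all 3 exceed a correlation of 0.1, a cutoff set here, so they were not treated as paired. Alternatives covered the pseudocount, the filter, the scaling, the variance model, the libraries in the fit, a replicate block and leaving out each library. A few genes that these rules name are not reported here.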

Additional observations from a re-analysis of the deposited data

How the results depend on the processing

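The direction of the genotype difference held for each of the 8 members under every alternative run, and no called value reversed. With a pseudocount of 0.1 the median size over the members was 1.26 with vehicle and 1.33 with pyridostatin. The count of members changed by pyridostatin in PARP3-/- cells was 0 with a pseudocount of 0.1, 0 with a mean of at least 5 FPKM (which drops FEZ1), 0 with quantile normalization, and 0 to 2 when one library was left out. In WT cells it was 1 with quantile normalization, CORO2B at -0.55 (limma adjusted p = 0.0197). For the relatives, the vehicle genotype count was 4 in fits of only the libraries of each comparison. The pyridostatin genotype count was 5 with a common median and 3 to 15 when one library was left out. The drug count in WT cells was 1 with a mean of at least 5 FPKM, 0 in fits of only the libraries compared, and 1 to 2 with one library left out. In PARP3-/- cells it was 4 with no filter, 1 with a common median and 1 to 4 with one library left out. The REST corepressor count with pyridostatin was 0 with a pseudocount of 0.1, without the variance trend and in fits of only the libraries compared, and 0 to 1 with one library left out. The cause of these moves was not tested.

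Same-numbered libraries correlated at most at 0.216 in their deviations from the group means, and in no comparison did all 3 pairs exceed 0.1, so the numbers were not taken as pairs. With a replicate block the relatives' genotype count with pyridostatin was 5, their drug count in WT cells was 1 and the REST corepressor count was 0, and no other count over a list moved by more than 1.5 times. With a common median the share of higher genes among all calls went from 68% to 51.7% between genotypes with vehicle, from 64.8% to 53.1% with pyridostatin, from 66.9% to 45.6% after the drug in WT cells, and from 54.8% to 45.3% in PARP3-/- cells. Every list gene called as reported kept its sign under both scalings, but not its call. Between genotypes, 17 of 21 calls with vehicle and 15 of 17 with pyridostatin held with quantile normalization, and 16 and 14 with a common median. Under both scalings PLCG1 (both treatments), NRP1, SNAP25 and SCG2 (vehicle) and CORO1C (pyridostatin) lost theirs. SLITRK6 after the drug in WT cells lost its call with quantile normalization, and CNP (vehicle), PLXNA3 (pyridostatin) and SHC1 after the drug in PARP3-/- cells with a common median. The limma adjusted p of these lost calls ran from 0.0520 to 0.0845.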
